A study of Mus musculus with 11 samples.

Results

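The locus described here is the stretch of mouse chromosome 19 from Ahnak through Scgb1a1 and Asrgl1 into the gene-poor sequence beyond them, chr19:9014340-9514504 in the mm10 assembly. It was covered by 10 of the 52958 deposited bins, each of about 50 kb, and they are called bin 1 to bin 10 from the Ahnak side. The 10 bins were chosen by measured values: the read depth of their 500 kb window was lower for Tet iTKO than for Ctrl among the long-term populations, and also in the libraries made before treatment. Both differences are therefore given as a description: bins counted past a threshold there repeat the choice, intervals cover counting error only, and nothing is read from either. The 80 bins within 2 Mb on either side, 40 in each direction, are the flanks.

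The values come from low-coverage whole-genome sequencing of bulk DNA from mouse embryonic stem cells (mESC), with 11 libraries in 7 groups, done to look for changes of copy number after loss of the TET enzymes, which oxidise 5-methylcytosine. Ctrl cells were Cre/ERT2 and Rosa26-LSL-H2b-Egfp, that is, they carried a Cre recombinase switched on by tamoxifen and a green fluorescent reporter switched on by Cre. Tet iTKO cells carried the same alleles and floxed Tet1, Tet2 and Tet3. Both genotypes gave 1 library before treatment (not activated), 1 acute library (1 µM tamoxifen for 2.5 days and 4 further days of culture) and 3 long-term libraries (tamoxifen, then monoclonal populations kept for 30 days). Dnmt TKO cells, which lack Dnmt1, Dnmt3a and Dnmt3b from the start and had no tamoxifen, gave 1 long-term library. Per the study's methods, the recombinase was driven by a human ubiquitin C promoter, and cells were kept on feeders in 2i medium. The methods name bulk cells for whole-genome sequencing and give a sort for live stem cells only for other assays. Also per the study, the Ctrl and Tet iTKO lines were derived separately from blastocysts of B6 background. Each long-term population grew from a single sorted cell. All Tet iTKO libraries thus came from lines of floxed descent and all Ctrl libraries from other lines, so that genotype and line cannot be told apart. The floxed alleles were made in stem cells of the NTac substrain of B6, and the methods name wild-type mice of the J substrain for the matings. Any difference of substrain cannot be told apart from genotype either. Groups with 1 library have no replicate error. Whether the long-term samples of a group were separate clones was not stated per sample, and p-values measure only the spread between these samples.

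Depth in such data counts DNA and not expression. A bin's depth follows the number of copies the cells carry and how well reads can be placed there, and sequence that the genome holds in several near-identical copies (a segmental duplication) is known to differ between mouse lines and to collect reads from more than one place. Ahnak encodes a very large scaffold protein under the cell membrane, Scgb1a1 the secretoglobin that club cells of the airway release, and Asrgl1 an asparaginase-like enzyme that cleaves isoaspartyl peptides.

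The bins of low depth lay beside the 3 genes, with borders placed no finer than a bin of about 50 kb. In all 5 Tet iTKO libraries the relative depth, which is a bin's depth divided by the library's median autosomal bin depth, was low in bins 4 to 8 (chr19:9164390-9414471, 250 kb), and in no other bin of the locus did all 5 lie below all 5 Ctrl libraries. Ahnak (chromosome 19, 8989284 to 9076914, plus strand) ends 87.5 kb before that low stretch, Scgb1a1 (9083636 to 9087958, minus strand) 76.4 kb before it and Asrgl1 (9109868 to 9135636, minus strand) 28.8 kb before it. The locus is thus named for genes that do not overlap the bins in which the libraries differed. In the GENCODE annotation no protein-coding gene overlaps the low stretch. It holds 115 kb of Gm9750, annotated as antisense RNA from 9135157 to 9279175 on the plus strand, the miRNA gene Gm24543, the processed pseudogenes AC121967.1 and Pcna-ps2 (a copy of the gene for the DNA clamp PCNA) and the pseudogene Gm2617. RefSeq annotates 1 protein-coding gene there, Gm38656 (9185225 to 9187019), and a shorter Gm9750 of 4.47 kb.

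The reference sequence of the low stretch runs into an inverted repeat. A self-alignment of the region paired chr19:9250216-9420881, here the left arm (171 kb), with chr19:9516994-9687162, the right arm (170 kb), in opposite orientation. The arms lie 96.1 kb apart. Identity was 98.8% over 4 aligned blocks (98.6 to 99.2%), with each gap counted once whatever its length. Counting every gap column, 34227 of 36314, 14859 of 16121, 72656 of 87681 and 28807 of 33154 aligned columns held matching bases. Bins 6 to 8 lie wholly in the left arm, bin 5 for 28.4% of its length and bin 4 not at all. The spacer is covered mainly by bins 9 and 10 and the right arm mainly by bins 11 to 13 of the flank. The RefSeq start of Gm9750 lies in bin 6 and in the left arm, and its counterpart lies in bin 14, beyond the locus. These windows of 300 bases (GRCm38.p6, the same assembly as mm10) are shown to let the likeness of the arms be seen, with the differing bases in capitals, the left at chr19:9271892-9272191 on the plus strand and the right at chr19:9665123-9665422 on the minus strand:
Gm9750 left arm: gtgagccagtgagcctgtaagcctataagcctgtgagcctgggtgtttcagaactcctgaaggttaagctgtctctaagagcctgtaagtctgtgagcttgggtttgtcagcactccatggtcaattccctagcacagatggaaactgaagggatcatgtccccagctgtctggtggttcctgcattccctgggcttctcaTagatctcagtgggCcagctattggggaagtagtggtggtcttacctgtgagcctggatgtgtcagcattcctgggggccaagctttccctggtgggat
Gm9750 right arm: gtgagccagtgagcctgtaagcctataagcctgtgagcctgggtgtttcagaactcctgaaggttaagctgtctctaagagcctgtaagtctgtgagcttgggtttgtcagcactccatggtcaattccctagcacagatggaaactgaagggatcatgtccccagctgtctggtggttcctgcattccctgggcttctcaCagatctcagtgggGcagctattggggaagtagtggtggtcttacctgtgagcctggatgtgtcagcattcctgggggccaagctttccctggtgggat
They differed by 2 substitutions, T202C and C216G (left arm's base, position from the 5′ end of the window, right arm's base), and were 99.3% identical.

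The RefSeq transcript starts of the protein-coding genes on either side of the first border of the low stretch are shown next. Each window runs from 250 bases before the start, with the first transcribed base in capitals. The start of Asrgl1 (chr19:9135517-9135816, minus strand, bin 3) is the last of the 3 genes before the stretch, and that of Gm38656 (chr19:9186970-9187269, minus strand, bin 4) is the only RefSeq protein-coding start within it:
Asrgl1: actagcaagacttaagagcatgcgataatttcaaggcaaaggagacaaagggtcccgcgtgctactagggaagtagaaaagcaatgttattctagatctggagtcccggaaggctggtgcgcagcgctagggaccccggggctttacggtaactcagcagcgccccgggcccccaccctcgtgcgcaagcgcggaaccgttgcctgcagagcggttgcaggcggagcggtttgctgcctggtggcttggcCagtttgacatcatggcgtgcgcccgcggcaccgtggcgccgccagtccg
Gm38656: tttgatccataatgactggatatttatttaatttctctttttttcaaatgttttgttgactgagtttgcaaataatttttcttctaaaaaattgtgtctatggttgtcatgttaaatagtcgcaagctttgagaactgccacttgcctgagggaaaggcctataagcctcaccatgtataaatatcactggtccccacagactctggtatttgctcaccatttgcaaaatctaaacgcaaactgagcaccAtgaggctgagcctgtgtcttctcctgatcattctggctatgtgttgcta
Neither window lies in an arm. Scgb1a1 is named only.

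The libraries held 555 to 812 megabases, with a median of 215 to 315 reads in an autosomal bin, and the whole locus held 2051 to 3502 reads in a library. Relative depth of chromosome X lay between 0.560 and 0.592 in all 11 libraries, which gives the scale of a chromosome below the autosomal level. Relative depth of chromosome Y was 0.0269 to 0.0381 in the 4 libraries before treatment and after acute treatment and 0.457 to 0.558 in the 7 long-term ones, so that every comparison of long-term with early populations also compares libraries of different Y depth. Its part in those comparisons was not tested.

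Bin 4, which holds Gm38656, opened the low stretch. Its relative depth was 1.09 in pre-treatment, 1.11 in acute and 1.12, 1.21 and 1.13 in long-term Ctrl (replicates 1 to 3). It was 0.820, 0.770 and 0.872, 0.805 and 0.716 in the same order in Tet iTKO, and 1.20 in Dnmt TKO. The highest Tet iTKO library thus lay well under the lowest Ctrl library, and Dnmt TKO lay among the Ctrl libraries.

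Bin 5, with the body of the long Gm9750 transcript and the miRNA gene Gm24543, had the largest long-term difference of the locus. Ctrl libraries stood at 1.10 before treatment, 1.19 after acute treatment and 1.08, 1.10 and 1.13 in the long-term populations. Tet iTKO libraries stood at 0.722, 0.700 and 0.778, 0.694 and 0.699. Dnmt TKO was at 1.07, just below the Ctrl range. The long-term means were 1.10 ± 0.023 (SD, n = 3) in Ctrl and 0.724 ± 0.047 (SD, n = 3) in Tet iTKO.

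Bin 6, the first that lies wholly in the left arm, holds the RefSeq start of Gm9750 and Pcna-ps2. Its relative depth was 1.12, 1.14 and 1.23, 1.04 and 1.14 in Ctrl, and 0.701, 0.666 and 0.770, 0.764 and 0.734 in Tet iTKO. The acute Tet iTKO value was the lowest of any library in the locus, and Dnmt TKO was at 1.04.

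Bin 7, with the pseudogene Gm2617, was at 1.09, 1.05 and 1.08, 1.21 and 1.11 in Ctrl and at 0.760, 0.809 and 0.813, 0.818 and 0.716 in Tet iTKO. Bin 8, which has no annotated gene, closed the stretch with 1.10, 1.07 and 1.09, 1.07 and 1.03 in Ctrl and 0.832, 0.800 and 0.864, 0.867 and 0.789 in Tet iTKO. Dnmt TKO was at 1.18 in bin 7 and 1.04 in bin 8. In the long-term populations the Tet iTKO to Ctrl ratio was 0.789 in bin 8 against 0.656 to 0.692 in the 4 bins before it. The log2 differences of bins 4 and 8 were about equal before treatment (-0.41 and -0.40), and that of bin 7 was smaller in size than that of bin 8 in the acute pair (-0.37 and -0.41).

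**Figure D1:**
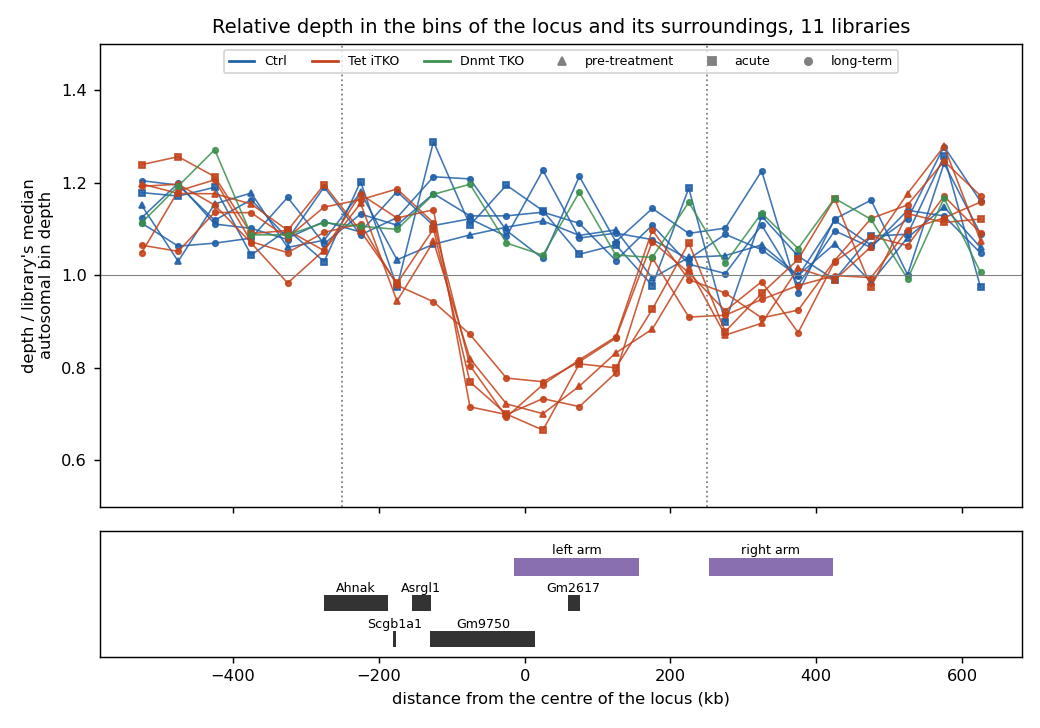
Relative depth (depth over the library's median autosomal bin depth) of each bin against the distance of its middle from the centre of the locus in kb, 1 line per library, with dotted lines at the borders of the locus and, below, the genes and the arms of the inverted repeat. In bins 4 to 8 the 5 Tet iTKO libraries lie between 0.666 and 0.872 and the Ctrl libraries between 1.03 and 1.23. The 3 named genes lie to the left of these bins.

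Over the low stretch as a whole, summed reads gave a relative depth of 1.10 before treatment, 1.11 after acute treatment and 1.12, 1.13 and 1.11 in long-term Ctrl. In Tet iTKO it was 0.767 before treatment, 0.749 after acute treatment and 0.820, 0.789 and 0.731 in long-term replicates 1, 2 and 3. Dnmt TKO was at 1.11. The Ctrl libraries were within 0.027 of one another, whereas the long-term Tet iTKO libraries spread over 0.089, with replicate 1 the highest and replicate 3 the lowest. The counting intervals of those outer libraries, 0.771 to 0.871 in replicate 1 and 0.683 to 0.782 in replicate 3 (95%, exact Poisson), overlapped by 0.011. These intervals rest on 852 to 1768 reads per library and cover counting error only.

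The long-term mean of the low stretch was 1.12 ± 0.0094 (SD, n = 3) in Ctrl and 0.780 ± 0.045 (SD, n = 3) in Tet iTKO, a ratio of 0.698 and a difference of -0.52 on the log2 scale. The pre-treatment pair gave a ratio of 0.698 (95% interval 0.643 to 0.758, exact conditional binomial) and the acute pair 0.674 (0.619 to 0.734). The low stretch in Tet iTKO thus lay between the level of chromosome X and the autosomal median at each stage. Dnmt TKO differed from the long-term Ctrl mean by -0.01 on the log2 scale.

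**Figure D2:**
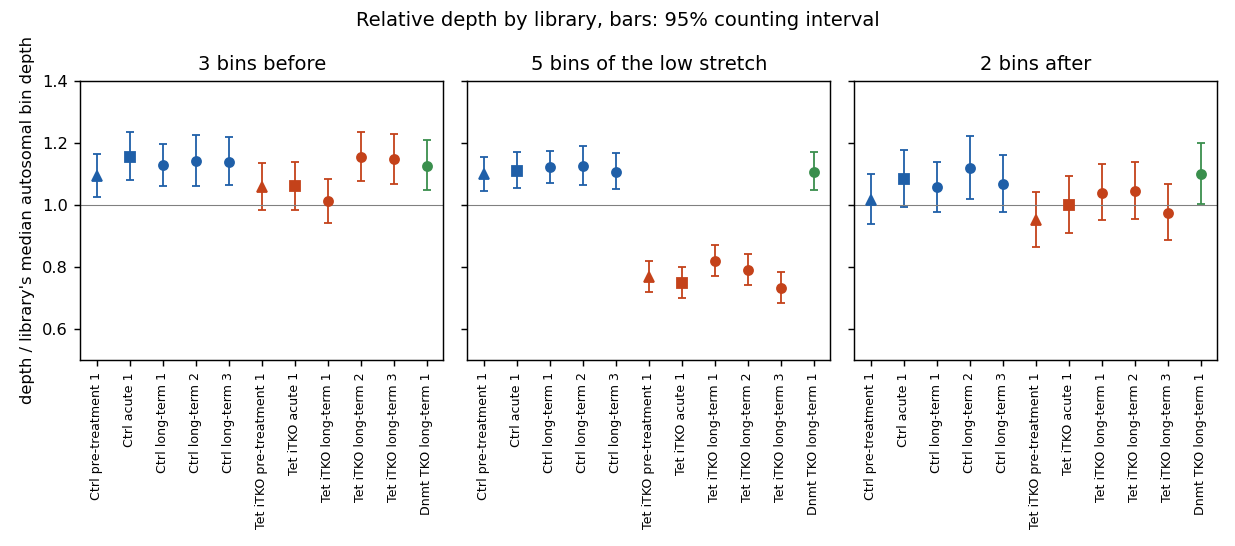
Relative depth of each library (horizontal axis) in the 3 bins of the locus before the low stretch, in its 5 bins and in the 2 bins after it, with bars for the 95% counting interval. Tet iTKO libraries lie at 0.731 to 0.820 in the low stretch and overlap with Ctrl libraries in both neighbouring sets of bins.

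Because the locus was chosen on the long-term contrast, the number of its bins past a threshold there repeats the choice. Of the 10 bins, 5 passed limma's adjusted p of 0.05 with lower depth in long-term Tet iTKO, against 0.102% of the 47924 autosomal bins tested in that direction and 0.134% in either direction. The same 5 bins had all 5 Tet iTKO libraries below all 5 Ctrl libraries, against 0.492% of autosomal bins. Without any 1 of the long-term Ctrl libraries, or without long-term Tet iTKO replicate 3, 4 bins passed, bin 8 being the one lost. In the pre-treatment pair, 5 bins were at or below -0.25 on the log2 scale in Tet iTKO minus Ctrl (-0.67 to -0.40), against 2.67% of autosomal bins, and in the acute pair 5 bins (-0.78 to -0.37), against 3.47%. These were bins 4 to 8 in both pairs. The acute pair was not named by the choice, but genotype and line cannot be told apart in it, so it is no independent support. Of 230 runs of adjoining autosomal bins with all 5 Tet iTKO libraries below all 5 Ctrl libraries, 227 were single bins, 2 had 2 bins, and the longest was formed by the 5 bins described here. In the other direction there were 237 runs, the longest of 10 bins (chr5:14862456-15757302). The run described here rests in part on the values the locus was chosen on.

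The bins of the 3 named genes did not separate the genotypes. The 3 bins that overlap Ahnak, the scaffold gene, had a relative depth of 1.10, 1.07 and 1.13, 1.13 and 1.10 in Ctrl and 1.05, 1.09 and 1.06, 1.17 and 1.12 in Tet iTKO (pre-treatment, acute and long-term replicates 1 to 3). The single bin with Scgb1a1, the airway secretoglobin gene, was at 1.03, 0.975 and 1.18, 1.12 and 1.11 in Ctrl and at 0.944, 0.983 and 0.979, 1.19 and 1.12 in Tet iTKO. The ranges overlapped for both genes, and since the Scgb1a1 bin also holds the end of Ahnak and the end of Asrgl1, its values are not those of 1 gene.

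For Asrgl1, the gene nearest to the low stretch, the 2 overlapping bins were at 1.05, 1.13 and 1.14, 1.17 and 1.14 in Ctrl and at 1.01, 1.04 and 0.961, 1.15 and 1.13 in Tet iTKO. Long-term replicate 1 was the lowest Tet iTKO library there, at 0.943 in bin 3, while the other long-term libraries of that genotype were at 1.11 and 1.14 in that bin. The long-term means of the Asrgl1 bins were 1.15 ± 0.015 (SD, n = 3) and 1.08 ± 0.105 (SD, n = 3). The bins of the wider gene families, taken by gene name only, were looked at as counts. There were 5 bins with Ahnak or its relative Ahnak2, 25 with a gene named as a secretoglobin and 12 with Asrgl1 or the asparaginase-type enzymes Aga, Aspg and Tasp1. Of these, 0 passed limma's adjusted p of 0.05 in the long-term comparison in either direction. In 0 of them did all Tet iTKO libraries lie on 1 side of all Ctrl libraries. With 0.134% and 1.02% of all autosomal bins in these classes, counts of 0 among so few bins say nothing particular about the families. Their median log2 differences were -0.02, -0.01 and 0.01, beside 0.00025 over all autosomal bins.

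At the borders of the chosen window the differences were small. Just inside it, bin 1 differed by 0.06 and bin 10 by -0.12 on the log2 scale in the long-term comparison, and just outside it the bin with Eef1g, an elongation factor gene, and the start of Ahnak differed by -0.03 and bin 11 by -0.19. The borders of the low stretch were sharper. Between bins 3 and 4 the long-term difference went from -0.13 to -0.54, and between bins 8 and 9 from -0.34 to -0.05. The 5 Ctrl and 5 Tet iTKO libraries overlapped in bins 3 and 9, and bins of this size place a border no finer than about 50 kb.

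In the flanks, 0 of 80 bins passed limma's adjusted p of 0.05 in the long-term comparison, and 5 of 80 had an unadjusted p under 0.05, 4 of them with lower depth in Tet iTKO, a share near the 6.07% of all autosomal bins. The smallest adjusted p was 0.430, in bin 12, with a log2 difference of -0.25 ± 0.075 (SE, n = 3 and 3). Bin 12 lies wholly in the right arm, holds the pseudogenes Gm29231 and Gm6445, and was the only flank bin in which all 5 Tet iTKO libraries (0.897, 0.961 and 0.986, 0.908 and 0.948) lay below all 5 Ctrl libraries (1.07, 1.13 and 1.06, 1.23 and 1.11). That is 1 of 80 flank bins, against 0.492% of autosomal bins, and bin 12 was picked after its values were seen. Bin 11, mostly in the right arm, differed by -0.19 ± 0.073 (SE; limma adjusted p = 0.715), and bin 13 by -0.08 ± 0.073 (limma adjusted p = 0.926). The left flank had a median difference of 0.0048 and the right flank of -0.02.

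**Figure D3:**
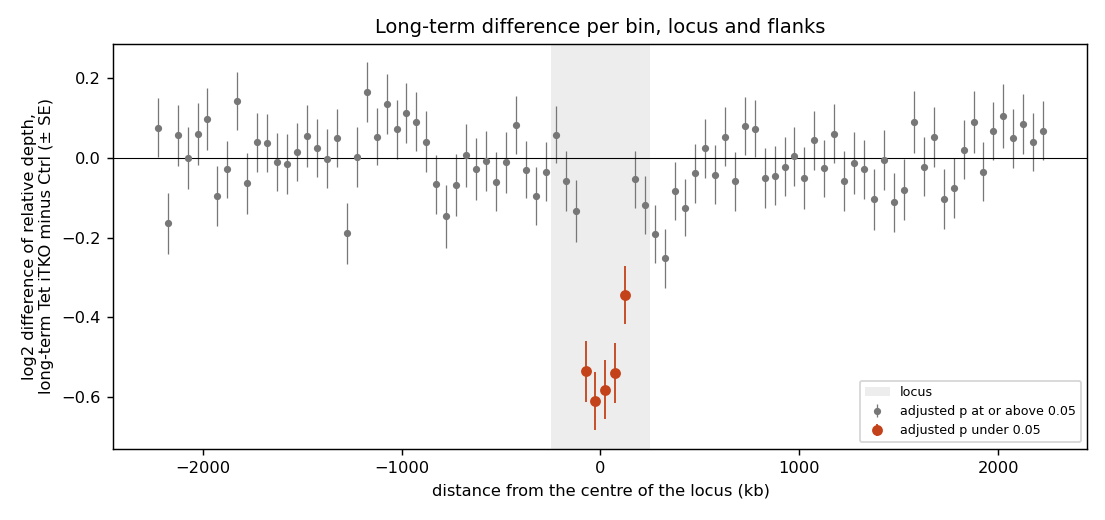
Log2 difference of relative depth, Tet iTKO minus Ctrl, of the long-term populations (n = 3 each, bars ± SE) for the 10 bins of the locus (grey band) and the 80 flank bins, against the distance from the centre of the locus in kb. The bins past an adjusted p of 0.05 are the 5 bins of the low stretch, on which the locus was chosen, at -0.61 to -0.34, and flank bins lie between -0.25 and 0.17.

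The arms of the repeat were compared as summed reads. The 2 bins of the low stretch outside the arm bins (4 and 5) were at 1.10, 1.15 and 1.10, 1.15 and 1.13 in Ctrl and 0.771, 0.735 and 0.825, 0.749 and 0.707 in Tet iTKO. The 3 bins of the left arm had means over 5 libraries of 1.10 ± 0.019 (SD) in Ctrl and 0.780 ± 0.033 in Tet iTKO. The ratio of Tet iTKO to Ctrl in the bins before the arm and within it was 0.674 and 0.713 in the long-term populations, 0.704 and 0.695 before treatment and 0.638 and 0.700 after acute treatment, so the order was not the same at each stage.

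In the spacer (bins 9 and 10) the 5 Ctrl libraries ranged from 1.02 to 1.12 and the 5 Tet iTKO libraries from 0.950 to 1.04, so that the ranges overlapped. In the 3 bins of the right arm the means were 1.05 ± 0.029 (SD, n = 5) in Ctrl, with a range of 1.02 to 1.10, and 0.938 ± 0.013 (SD, n = 5) in Tet iTKO, with a range of 0.928 to 0.958, and Dnmt TKO was at 1.07. The long-term ratio there was 0.884. The pre-treatment ratio of the right arm was 0.895 (95% counting interval 0.809 to 0.991) and the acute ratio 0.936 (0.843 to 1.04), of which the latter includes equal depth. Summed over the bins of both arms (6 to 8 and 11 to 13), relative depth was 1.05 to 1.10 in Ctrl and 0.846 to 0.874 in Tet iTKO, with a long-term ratio of 0.797. Bins 5, 9 and 14, which lie in an arm for 28.4, 12.8 and 45.2% of their length, are not in the sum. The sum thus does not fully take out the choice of arm for a read.

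**Figure D4:**
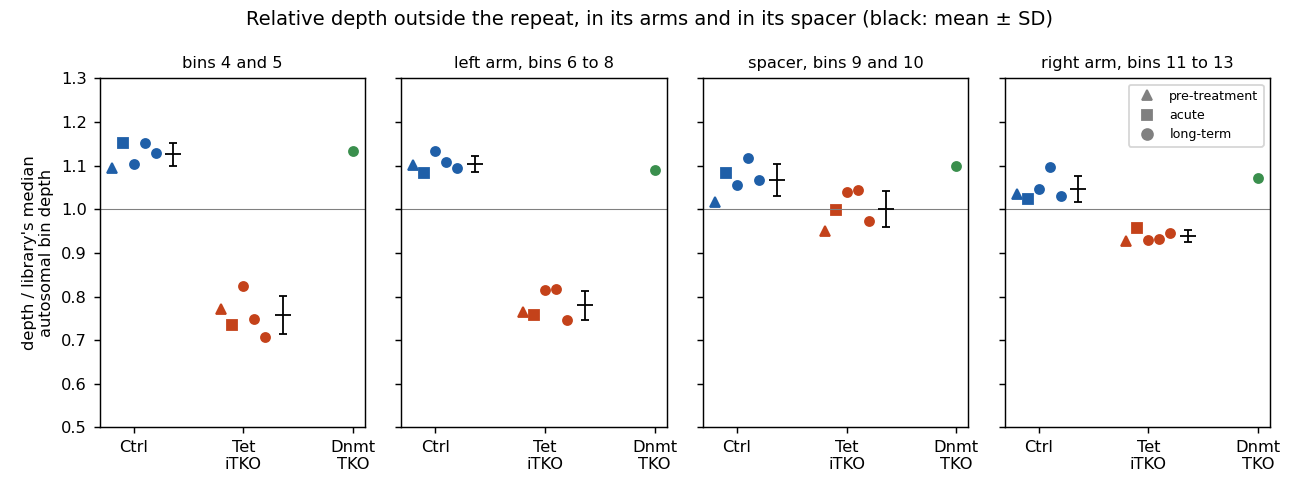
Relative depth (vertical axis) of the 5 Ctrl, 5 Tet iTKO and 1 Dnmt TKO libraries in bins 4 and 5, the left arm, the spacer and the right arm, with the mean ± SD in black and the stage by symbol. Tet iTKO libraries are lowest in the first 2 panels, overlap with Ctrl in the spacer and lie slightly below Ctrl in the right arm.

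How well reads can be placed was measured on the reference as the share of a bin's 32-base words that the genome holds once, on both strands. That share fell across the locus from 93.3% in bins 1 and 2 to 72.1% in bin 3, 62.9% in bin 4, 51.2% in bin 5, 23.1% in bin 6 and 14.9% in bin 7, stayed below that of bin 6 in bin 8, and was 58.8% and 48.7% in bins 9 and 10. In bins 6 to 8, 52.1 to 62.5% of words were found 2 to 10 times. The flank bins had a median of 88.9%, and none of the 80 was below bin 7. The bins of the right arm had shares of 17.9, 18.9 and 25.2%, beside 14.9 to 23.1% in the left arm. Summed over the right-arm bins, Tet iTKO libraries were at 0.928 to 0.958. The long-term log2 difference was -0.54 in bin 4, with 62.9% of its words found once, and -0.12 in bin 10, with 48.7%. In bin 10 the 3 long-term Tet iTKO libraries (1.01, 0.991 and 0.910) lay below the 3 long-term Ctrl libraries (1.04, 1.09 and 1.02), but all 5 and 5 libraries overlapped. The same split of 3 and 3 was present in flank bins, among them bins 11, 12 and 14 and chr19:7963994-8014010. Its share over all autosomal bins was not counted, so nothing is read from it. Interspersed and other repeats marked in the reference took up 52.1 to 72.5% of the 5 bins and a median of 35.3% of the flank bins, and GC content was 39.1 to 40.2% against a median of 43.8%. Correcting each library for GC content left the long-term difference of the low stretch at -0.52. The part of multiply placed reads in the result was not tested.

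**Figure D5:**
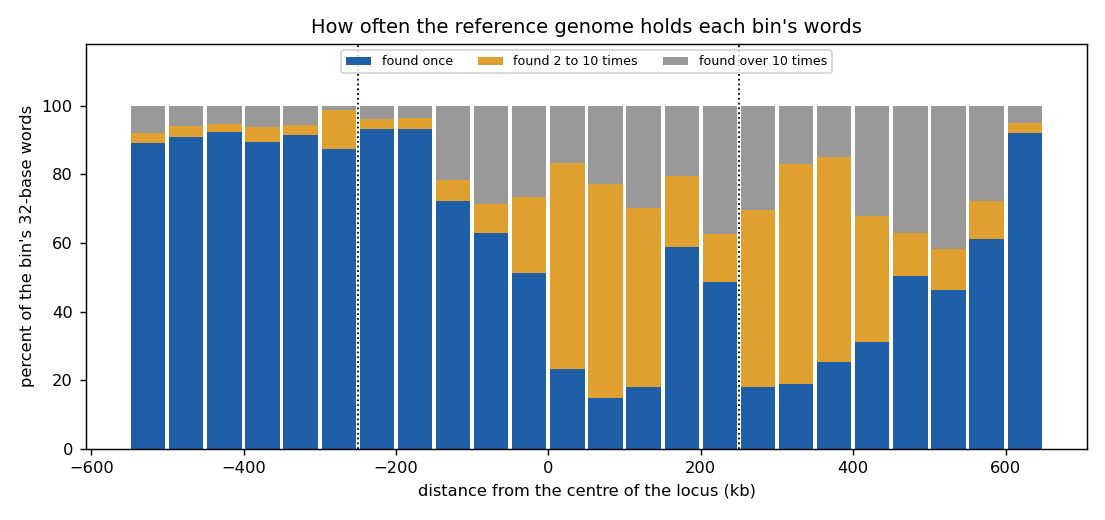
Percent of the 32-base words of each bin that the reference genome holds once, 2 to 10 times and over 10 times, against the distance from the centre of the locus in kb, with dotted lines at the borders of the locus. Words found once are fewest in the left-arm bins (14.9 to 23.1%) and in the right-arm bins beyond the locus (17.9 to 25.2%).

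Long-term and early populations were compared within each genotype. The choice of the locus asked for the difference between genotypes both before treatment and in the long-term populations, which favours loci with little change between these stages, so that small differences here are in part fixed by the choice. The labels do not tie the long-term populations to the early ones, and with the unequal Y depth given above it is not settled that they come from the same lines, so these are differences between libraries and not shown to be changes in culture. In Ctrl, 0 of 10 bins of the locus passed limma's adjusted p of 0.05 between the 3 long-term and the 2 early (pre-treatment and acute) libraries, against 0.102% of autosomal bins, and 2 had an unadjusted p under 0.05, against 5.19% of autosomal bins. In Tet iTKO it was likewise 0 of 10, against 0.0417%, and again 2 at the unadjusted level, against 6.15%. These were bins 2 and 9 in both genotypes, each higher in the long-term libraries: bin 9 by 0.17 ± 0.081 in Ctrl (SE; limma adjusted p = 0.957) and by 0.24 ± 0.081 in Tet iTKO (limma adjusted p = 0.704). Bin 2 was higher by 0.18 in each genotype.

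In the low stretch the long-term populations differed from the early ones by 0.02 in Ctrl and by 0.04 in Tet iTKO on the log2 scale (exact two-sided permutation p = 0.40 and 0.60, adjusted 0.65 for both over 12 tests), and 3 libraries against 2 cannot give a p below 0.20. The Tet iTKO value was 0.0030 without long-term replicate 1 and 0.086 without long-term replicate 3. For the whole locus the differences were 0.02 and 0.05 (exact permutation p = 0.60 and 0.20). Single bins of the stretch differed by -0.06 to 0.09 in Ctrl and by -0.01 to 0.15 in Tet iTKO.

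In Dnmt TKO, which was set against the long-term Ctrl mean without a test, 0 of 10 bins of the locus were at or beyond 0.25 on the log2 scale in either direction, against 9.96% of autosomal bins. The bins of the locus lay between -0.12 and 0.14 of the Ctrl mean.

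Among the 4809 autosomal windows of 500 kb, the locus was the lowest in Tet iTKO minus Ctrl before treatment, the 2nd lowest after acute treatment and the 15th lowest in the long-term comparison. The pre-treatment and long-term ranks repeat the choice of the locus. The acute rank is not independent of it, since genotype and line cannot be told apart there either. The 4800 windows outside the locus and its flanks were ranked by the likeness of their profile over the 10 Ctrl and Tet iTKO libraries, as the Euclidean distance between log2 values centred on each window's mean. The 3 most alike were chr3:92022948-92523059 (distance 0.316), with Pglyrp3 and Lor as its first protein-coding genes, chr6:138513213-139013081 (0.329), with Lmo3 and Igbp1b, and chr7:3566148-4017677 (0.329), starting with Oscar and Ndufa3. These distances were larger than the whole profile of each of these windows (0.162 to 0.179, its distance from a flat line) and smaller than that of the locus itself (0.457).

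The windows with the largest long-term difference on chromosomes 14 and 13 differed from the locus in their stages. The window chr14:26001732-26496423, which holds Duxbl2 and Duxbl3 (homeobox genes), had a log2 difference of -0.35 in the long-term comparison but of 0.20 before treatment and 0.11 after acute treatment. The window chr13:66004494-66504363 was at -0.38 in the long-term comparison, 0.05 before treatment and 0.04 after acute treatment. The locus on chromosome 19 was at -0.27, -0.28 and -0.33 in the same order. It was chosen on its long-term and pre-treatment values, so this contrast is in part fixed by the choice.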

How the data were processed

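The authors trimmed reads, mapped them with BWA-mem (mm10) and used Picard to drop optical duplicates. The deposited coverage signal is the mean depth of each of 52958 bins, not corrected for GC content or mappability, and the deposited log2 column is the log2 of that depth (largest gap 4.05e-05). Of the bin values under 400 bases, 96.2% were multiples of 50 within 1 base, so reads were taken as bases over 50, although the study's methods give a longer minimum read length. Mapping quality filters are not given in the sources used here. The bins' coordinates were checked against GRCm38, and genes came from GENCODE M21 and RefSeq.

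Depth was divided by the library's median autosomal bin depth. All 47924 autosomal bins had a mean relative depth of at least 0.25 and were tested on log2 values with limma 3.58.1 (R 4.3.3, lmFit, eBayes, Benjamini-Hochberg), with the 6 long-term libraries for genotype and the 10 Ctrl and Tet iTKO libraries for stage. Groups of 1 library were called at 0.25 on the log2 scale, with no test. Summed regions used exact permutation tests over libraries (scipy 1.17.1). The arms came from a self-alignment with minimap2 2.31-r1302, keeping blocks of 10 kb or more, and an arm's bins overlap it by at least 80%. The fit was also run on simulated reads that held counting noise only and no spread between clones or lines, so nothing is concluded from that run. Long-term libraries of a group differed by at least sampling noise (chi-square per degree of freedom 1.02 to 1.15) and were counted singly. Repeat libraries of 1 clone would also differ by sampling noise, so these values cannot tell them from separate clones. Same-numbered long-term libraries did not deviate together (correlations -0.0051 to 0.0019).

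The locus, the gene lists and the tests were chosen with earlier results of these data known, and the low stretch after its values were seen. The text names the 3 genes of the locus, genes overlapping its bins and the nearest outside, every bin of the locus, flank bins past the threshold (none, so the flank bins described were chosen after their values were seen), the 3 most alike windows and the largest windows of chromosomes 13 and 14.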

Additional observations from a re-analysis of the deposited data

How the results depend on the processing

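The long-term difference of the locus was -0.27, and it was -0.31 as the median over its bins. It lay between -0.29 and -0.25 with each long-term library left out, and scaling to the chromosome 19 flanks, to the autosomal mean or after GC correction moved it by less than the spread between replicates. The low stretch, whose alternatives were chosen after seeing the data, ranged from -0.56 to -0.47 with a library left out. The locus difference between long-term and early Ctrl (0.02) turned to -0.0037 without the pre-treatment library and to 0.046 without the acute one, and that of Tet iTKO lay between 0.03 and 0.07 with a library left out. Among the bins the locus was chosen on, bins 4 to 7 stayed past the threshold in all 14 alternatives and bin 8 in 10, which repeats the choice.

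With the replicate number as a block, the long-term difference of the locus was -0.27 and 79 autosomal bins were called instead of 64. The numbers do not pair the libraries. The 64 bins became 46 to 110 with a library left out (110 without Tet iTKO replicate 3). Bins called between stages in Ctrl went from 49 to 28 with bins restricted to a mean relative depth of 0.5 to 1.5, and to 31 to 39 with a library left out (31 without the acute one). In Tet iTKO they went from 20 to 12 with only that genotype's libraries in the fit, and to 3 to 33 with a library left out (3 without the acute library, 8 without the pre-treatment one and 33 without long-term replicate 3). No flank bin was called in any alternative of the long-term comparison. The bin size limits borders to 50 kb, and 215 to 315 reads per bin limit single bins.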
